A study of Mus musculus with 2 samples.

Results

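The mitochondrial chromosome is a small circle that each mitochondrion carries in many copies. It encodes the core subunits of respiratory complexes I, III, IV and V, together with the rRNAs and tRNAs of the mitochondrial ribosome's own translation system, while all other respiratory subunits are encoded in the nucleus. It is transcribed as long precursors from which tRNAs are cut out, which releases the rRNAs and mRNAs between them, and most of these receive short poly(A) tails. In microglia, the resident macrophages of the brain, lipopolysaccharide (LPS) is known to move energy metabolism from oxidative phosphorylation towards glycolysis, and DJ-1, the product of PARK7, is a redox-sensitive protein that can associate with mitochondria.

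The mitochondrially encoded transcripts were taken as every gene whose symbol starts with mt-, which gave 29 of 19537 genes in the count matrices. These were 11 mRNAs, 2 rRNAs and 16 tRNAs, of which 24 genes were listed for the KO LPS library and 27 for the WT LPS library. The GENCODE vM39 annotation holds 37 genes on the mitochondrial chromosome (13 mRNAs, 2 rRNAs and 22 tRNAs), and 8 of them had no row: mt-Atp8, mt-Nd3, mt-Td, mt-Tg, mt-Th, mt-Tk, mt-Tr and mt-Ts1.

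The libraries came from a PARK7/DJ-1 knockout (KO) line, which carries the gene trap allele Park7Gt(XE726)Byg on a C57BL/6NCrl background, and from wildtype (WT) littermates. All mice were 3 to 4 months old and had received LPS by intraperitoneal injection 24 h before, and each genotype is 1 library made from 2 pooled mice, 1 female and 1 male. No untreated library was used, so every value describes the inflamed state. CD11b+CD45int cells were sorted from brain and profiled by Drop-seq, in which beads with oligo-dT primers catch the poly(A) ends of RNA in droplets and a unique molecular identifier (UMI) marks each captured molecule. With 1 library per genotype there was no replicate and no test between genotypes, and the 95% intervals given below cover counting error only.

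Barcodes with at least 500 UMIs and at least 100 genes were called cells, which gave 320 cells with 381305 UMIs (median 963.5 per cell) in KO LPS and 1427 cells with 1989011 UMIs (median 1065) in WT LPS. Barcodes of 1 to 100 UMIs, taken here to hold mostly free RNA caught without a cell, numbered 9069 in KO LPS (median 18 UMIs) and 4267 in WT LPS (median 75 UMIs). The libraries shared 0 cell barcodes. Park7 had 1 UMI in the KO LPS cells and 323 in the WT LPS cells, a ratio of 0.0161 (interval 0.000408 to 0.0906) that goes with the labels. All 10 microglia markers were present, summing to 33981 CPM (UMIs of the gene or list per 1000000 UMIs of the cells) among KO LPS cells and 27778 CPM among WT LPS cells. Markers of other cell types were unequal as well. The 5 choroid plexus markers summed to 2135 against 14.6 CPM, the 6 astrocyte markers to 370 against 173 CPM and the 5 endothelial markers to 86.5 against 15.1 CPM (KO LPS against WT LPS), while the 4 measured neutrophil markers were all at 0 UMIs in the KO LPS cells and at 68.4 CPM in WT LPS. In WT LPS the neutrophil markers were higher in the barcodes of 1 to 100 UMIs, at 219 CPM, and cells were at 0.313 (0.233 to 0.424) of that level.

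The nuclear genome of the mouse holds copies of parts of the mitochondrial chromosome, so the 3' ends of the genes were marked for such copies. How reads that match both places were counted is not given in the sources used here. The last 60 bases of each mRNA and rRNA below, and the whole of each tRNA, were read from GRCm39 on the strand of the gene. Capitals mark bases that lie in a stretch of 50 or more bases with an identical copy on a nuclear chromosome, and lower case marks the rest. The first set holds the rRNAs and mRNAs with the most UMIs: mt-Rnr1 (12S rRNA, MT:70-1024), mt-Rnr2 (16S rRNA, MT:1094-2675), mt-Nd1 (MT:2751-3707), mt-Nd2 (MT:3914-4951), mt-Nd5 (MT:11742-13565) and mt-Cytb (MT:14145-15288).
mt-Rnr1: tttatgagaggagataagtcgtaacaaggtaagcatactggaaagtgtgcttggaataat
mt-Rnr2: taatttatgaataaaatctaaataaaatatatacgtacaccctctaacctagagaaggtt
mt-Nd1: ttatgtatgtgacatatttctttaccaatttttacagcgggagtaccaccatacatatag
mt-Nd2: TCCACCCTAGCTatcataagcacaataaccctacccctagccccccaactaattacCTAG
mt-Nd5: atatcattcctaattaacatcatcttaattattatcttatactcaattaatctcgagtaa
mt-Cytb: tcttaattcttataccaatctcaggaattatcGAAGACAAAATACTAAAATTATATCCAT

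The second set holds the mRNAs that were nearly uncounted, mt-Co2 (MT:7013-7696), mt-Atp8 (MT:7766-7969), mt-Atp6 (MT:7927-8607), mt-Co3 (MT:8607-9390), mt-Nd3 (MT:9459-9806) and mt-Nd4l (MT:9877-10173), and beside them mt-Co1 (MT:5328-6872), which was counted although its end is copied.
mt-Co2: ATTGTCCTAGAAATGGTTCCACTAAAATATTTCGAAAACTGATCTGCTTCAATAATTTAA
mt-Atp8: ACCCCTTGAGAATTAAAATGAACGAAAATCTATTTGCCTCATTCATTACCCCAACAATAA
mt-Atp6: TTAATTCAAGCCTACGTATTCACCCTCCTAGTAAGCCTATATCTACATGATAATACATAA
mt-Co3: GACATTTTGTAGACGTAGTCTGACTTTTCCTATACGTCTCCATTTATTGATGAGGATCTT
mt-Nd3: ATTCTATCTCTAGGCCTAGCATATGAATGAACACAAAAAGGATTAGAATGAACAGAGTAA
mt-Nd4l: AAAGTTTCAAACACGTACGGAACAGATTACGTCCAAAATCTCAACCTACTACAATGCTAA
mt-Co1: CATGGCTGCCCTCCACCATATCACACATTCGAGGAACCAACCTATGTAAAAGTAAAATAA

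The third set holds tRNAs: mt-Tm (methionine, MT:3845-3913) and mt-Tp (proline, MT:15356-15422), which had the most tRNA UMIs in the cells of both libraries, mt-Tv (valine, MT:1025-1093), which had the most in the KO LPS barcodes of 1 to 100 UMIs, and mt-Tw (tryptophan, MT:4950-5016) and mt-Tn (asparagine, MT:5089-5159), which are copied along their whole length.
mt-Tm: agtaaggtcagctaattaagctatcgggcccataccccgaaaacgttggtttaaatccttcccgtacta
mt-Tp: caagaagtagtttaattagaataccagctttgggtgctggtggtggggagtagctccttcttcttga
mt-Tv: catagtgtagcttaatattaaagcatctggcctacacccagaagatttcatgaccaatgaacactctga
mt-Tw: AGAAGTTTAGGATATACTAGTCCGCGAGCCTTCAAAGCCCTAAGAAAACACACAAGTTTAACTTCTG
mt-Tn: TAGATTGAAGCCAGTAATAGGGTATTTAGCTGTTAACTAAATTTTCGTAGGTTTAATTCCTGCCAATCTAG

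The counted genes and the copied genes were nearly separate sets. The 6 mRNAs of the second set other than mt-Co1 had at most 5 UMIs each over all barcodes of both libraries or no row at all, and 99.0% to 100% of their windows of 50 bases had an identical nuclear copy. The 7 mRNAs with more UMIs, mt-Nd1, mt-Nd2, mt-Co1, mt-Nd4, mt-Nd5, mt-Nd6 and mt-Cytb, had 0% to 62.2% of their windows copied. Of the 8 tRNAs with at most 5 UMIs or no row, 7 had over 90% of their windows copied, whereas of the 14 tRNAs with more UMIs 2 did (mt-Tw and mt-Te) and 10 had no window copied. The exception among the 8, mt-Tr, had 0% of its windows copied but all 68 of its bases in copied stretches. By bases, mt-Ta (62 of 69), mt-Tc (52 of 66), mt-Ts2 (30 of 59) and mt-Tt (25 of 67) of the counted tRNAs were copied in part. The subunits missing from the counts were thus most of the mitochondrial part of complex IV (mt-Co2 and mt-Co3), all of that of complex V (mt-Atp6 and mt-Atp8) and 2 subunits of complex I (mt-Nd3 and mt-Nd4l).

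The copy behind most of these genes lies on chromosome 1 (GRCm39 chr1:24650616-24655269). It aligned over 4654 bases with 99.936% identity to MT:6390-11042, from inside mt-Co1 to inside mt-Nd4. The next longest lies on chromosome 2 (chr2:22477300-22480546), with 97.362% identity to MT:4441-7699, which includes mt-Tw, mt-Tn, mt-Ty and mt-Co2. mt-Co1 and mt-Nd4 straddle the ends of the copy on chromosome 1. The last 300 bases of mt-Co1 were copied in 100% of windows and those of mt-Nd4 in 0%, and both were counted, with 253 and 388 UMIs over all KO LPS barcodes and 1334 and 1951 over all WT LPS barcodes. Gm10222, the annotated gene within the chromosome 1 copy that the matrices list, had 0 UMIs in the cells of either library. How reads with several matches were treated is not given in the sources used here, and its part in the near absence of these genes was not tested. A count of 0 in the cells allows up to 7.87 CPM for KO LPS and 1.51 CPM for WT LPS (3 counts), and this limit does not hold for RNA that was discarded before counting.

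**Figure D1:**
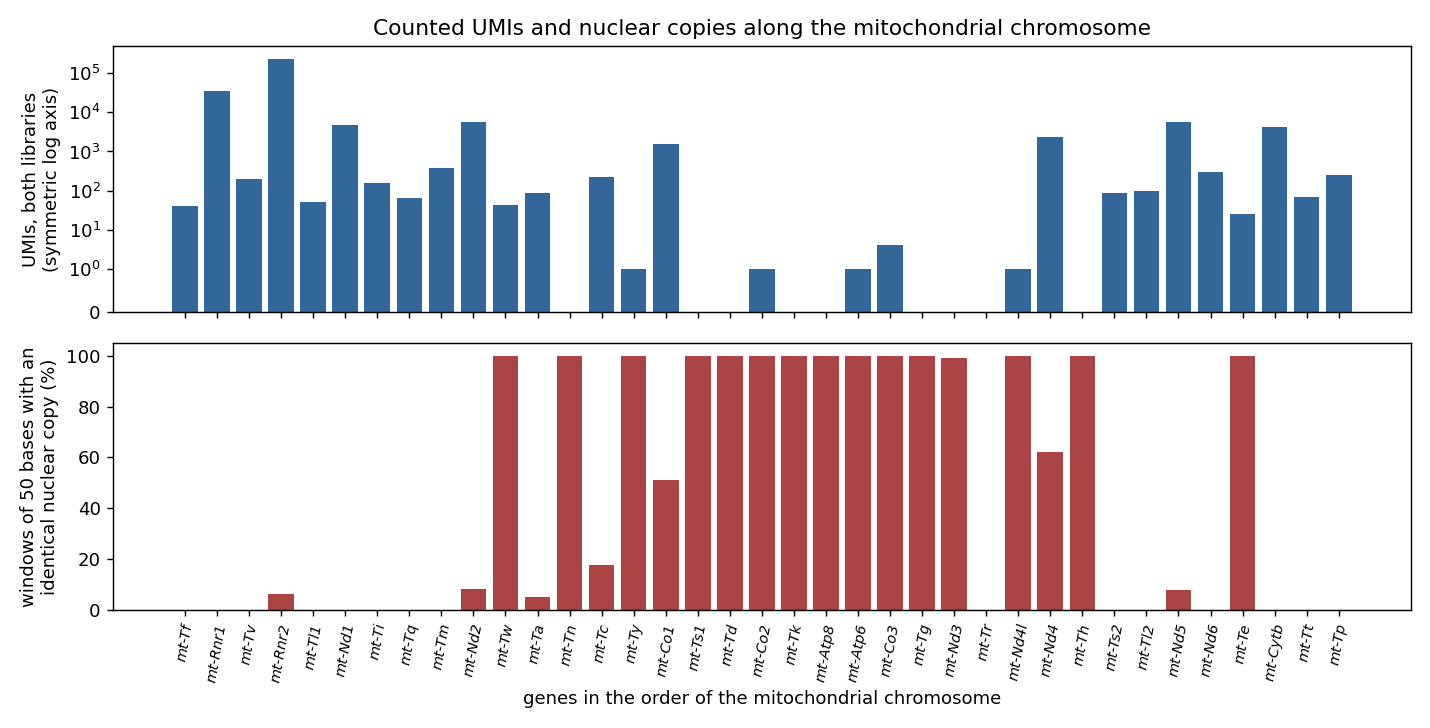
UMIs over all barcodes of both libraries (top, symmetric log axis) and percent of windows of 50 bases with an identical copy on a nuclear chromosome of GRCm39 (bottom) for the 37 genes in the order of the mitochondrial chromosome; genes without a row in the matrices are drawn at 0. From mt-Ts1 to mt-Nd4l no gene exceeded 5 UMIs, and this run of genes is where copies cover 99.0% to 100% of windows, except mt-Tr at 0%. All 68 bases of mt-Tr lie in copied stretches, although no window of 50 bases inside the gene is copied whole.

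rRNA made up most of the mitochondrial RNA in cells. It held 81.2% of the mitochondrial UMIs among KO LPS cells (interval 80.5 to 81.8) and 85.6% among WT LPS cells (85.4 to 85.8), against 15.9% and 13.8% for mRNA and 2.91% and 0.612% for tRNA. Taken over all UMIs of the cells, mitochondrial rRNA was 3.19% of UMIs for KO LPS against 4.42% for WT LPS, giving a ratio of 0.721 (0.708 to 0.735) that turned to 1.41 when set per UMI of cytosolic ribosomal protein genes. Mitochondrial mRNA was 0.625% of UMIs for KO LPS (0.600 to 0.650) against 0.714% for WT LPS (0.702 to 0.725), giving a ratio of 0.876 (0.838 to 0.915) that likewise turned to 1.72 on that scale. Mitochondrial tRNA was 0.114% of UMIs for KO LPS, from 435 UMIs, against 0.0316% for WT LPS, from 629 UMIs, giving a ratio of 3.61 (3.19 to 4.08). The mRNA and rRNA shares were therefore lower and the tRNA share higher in the KO LPS cells, by more than counting error, on the scale of all UMIs. Cytosolic ribosomal protein mRNAs, which serve as the other scale, were at 0.510 of their WT LPS level themselves. mRNA in cells with at least 1000 UMIs had a ratio of 0.956 (0.908 to 1.01), which is within counting error of 1.

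**Figure D2:**
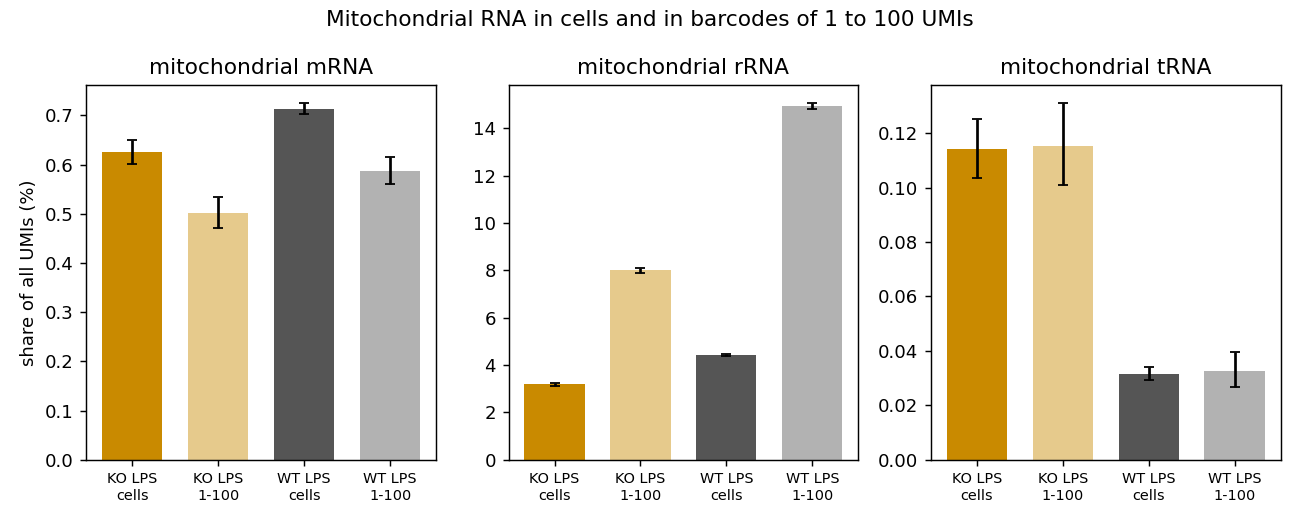
Percent of all UMIs from mitochondrial mRNA, rRNA and tRNA genes in cells and in barcodes of 1 to 100 UMIs (paler bars) of each library, with exact 95% counting intervals; there is 1 library per genotype. rRNA was higher in the barcodes of 1 to 100 UMIs of both libraries, mRNA was higher in cells, and tRNA was higher in KO LPS in both (0.114% against 0.0316% in cells, where 3 cells per library raise the bars); the order of the libraries for mRNA and rRNA turned when set per UMI of cytosolic ribosomal protein genes.

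Among the rRNAs, the 16S rRNA gene mt-Rnr2 was at 29478 CPM in KO LPS cells and 40556 CPM in WT LPS cells, where it ranked 2 among all genes after the nuclear-retained RNA Malat1 in both libraries. The 12S rRNA gene mt-Rnr1 was at 2402 and 3642 CPM, with ranks 19 and 17. Per kb of gene, mt-Rnr2 stood at 18633 and 25636 CPM per kb and mt-Rnr1 at 2515 and 3813 CPM per kb, although both rRNAs are made from the same precursor. mt-Rnr1 was 7.54% of the mitochondrial rRNA UMIs in KO LPS cells (7.07 to 8.02) against 8.24% in WT LPS cells (8.06 to 8.42). The KO LPS to WT LPS ratio was 0.727 (0.713 to 0.741) for mt-Rnr2 and 0.660 (0.615 to 0.707) for mt-Rnr1. Both were below 1 by more than counting error, and both exceeded 1 per UMI of cytosolic ribosomal protein genes (1.29 for mt-Rnr1).

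Complex I, which takes electrons from NADH, supplied most mRNA UMIs. mt-Nd1 was at 997 CPM in KO LPS cells (899 to 1102) against 1523 CPM in WT LPS cells (1470 to 1579), a ratio of 0.654 (0.586 to 0.728), or 1.28 per UMI of cytosolic ribosomal protein genes. mt-Nd2 was at 1547 and 1465 CPM, a ratio of 1.06 (0.965 to 1.15), and mt-Nd5 at 1448 and 1406 CPM, a ratio of 1.03 (0.938 to 1.13), so neither was separated between libraries by counting error on the scale of all UMIs, whereas per UMI of cytosolic ribosomal protein genes they were at 2.07 (1.89 to 2.26) and 2.02 (1.84 to 2.21). mt-Nd4 was at 674 and 761 CPM (ratio 0.885, 0.773 to 1.01, or 1.74 on that other scale). mt-Nd6, the only mRNA here that is encoded on the opposite strand, was at 55.1 and 78.4 CPM (ratio 0.702, 0.423 to 1.11), and its interval too included 1. The genes of complex I thus did not move as a block: on the scale of all UMIs mt-Nd1 was lower in KO LPS, and over all cells the intervals of the other 4 held a ratio of 1. With other choices of cells 3 of them left it, mt-Nd4 at 0.755 (0.648 to 0.875) without cells of a mitochondrial share over 10% and 0.778 (0.632 to 0.952) in cells marked by Xist (at least 2 Xist UMIs and no Y-linked UMI), mt-Nd5 at 1.16 (1.04 to 1.29) in cells with at least 1000 UMIs, and mt-Nd6 at 0.580 (0.355 to 0.904) with at least 200 UMIs. Whether counting used the strand is not given in the sources used here, so antisense RNA cannot be told apart from mt-Nd6.

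For complex III, mt-Cytb (cytochrome b) was at 1107 CPM in KO LPS cells and 1396 CPM in WT LPS cells, a ratio of 0.793 (0.714 to 0.879). For complex IV, the catalytic subunit gene mt-Co1 was at 422 and 505 CPM, a ratio of 0.836 (0.704 to 0.989). Per UMI of cytosolic ribosomal protein genes both turned, mt-Cytb to 1.55 and mt-Co1 to 1.64. The interval of mt-Co1 also held 1 in cells with at least 1000 UMIs (0.923, 0.755 to 1.12) and without the 1% of cells with most UMIs (0.865, 0.727 to 1.02), as did that of mt-Cytb with at least 1000 UMIs (0.892, 0.790 to 1.005). In cells with Y-linked UMIs both intervals held 1, with mt-Cytb at 0.639 (0.327 to 1.13) and mt-Co1 at 1.28 (0.604 to 2.42). Per kb, the order of the mRNA levels in WT LPS cells was mt-Nd1 (1592 CPM per kb), mt-Nd2 (1411), mt-Cytb (1220), mt-Nd5 (771), mt-Nd4 (552), mt-Co1 (327) and mt-Nd6 (151). In KO LPS cells mt-Nd2 (1491 CPM per kb) came before mt-Nd1 (1041) and mt-Cytb (967), whose intervals overlap, and the order of the rest was the same. In mRNA composition, mt-Nd1 was 15.9% of mitochondrial mRNA UMIs in KO LPS cells (14.5 to 17.5) against 21.3% in WT LPS cells (20.7 to 22.0), and mt-Nd2 was 24.8% (23.0 to 26.5) and 20.5% (19.9 to 21.2). These are shares within the mitochondrial mRNAs and do not depend on a scaling to nuclear genes.

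Between the libraries, 21 mitochondrial genes had at least 20 UMIs in the cells of both libraries together. Of these, 11 were higher in KO LPS by over 1.5-fold, all of them tRNAs, where 26.2% of all 9085 genes with as many UMIs were. The 3 genes lower by over 1.5-fold were mt-Nd1, mt-Rnr1 and mt-Tw, where 25.8% of all genes were. These counts moved with the cells and the scale: with at least 1000 UMIs 11 were higher and 1 lower, with at least 200 UMIs 11 and 5, without cells of a mitochondrial share over 10% 10 and 5, and per UMI of cytosolic ribosomal protein genes 16 and 0. Fewer genes had enough UMIs in the cells split by sex-linked genes, where 6 were higher and 3 lower of 19 in Xist cells and 4 were higher and 6 lower of 12 in Y-linked cells. The share over all genes was taken only for all cells on the scale of all UMIs. Counts under other choices, here and below, therefore have no such reference. Scaling to cytosolic ribosomal protein genes raises the ratio of every gene by the same factor. The median log2 ratio, with KO LPS as numerator, was -0.25 over the 7 mRNAs, -0.53 over the 2 rRNAs and 2.01 over the 12 tRNAs, beside 0.03 over all genes. With 2376 genes higher and 2343 lower in the whole table at this fold, differences of this size were common, and the 2 libraries differ in depth and cell content.

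**Figure D3:**
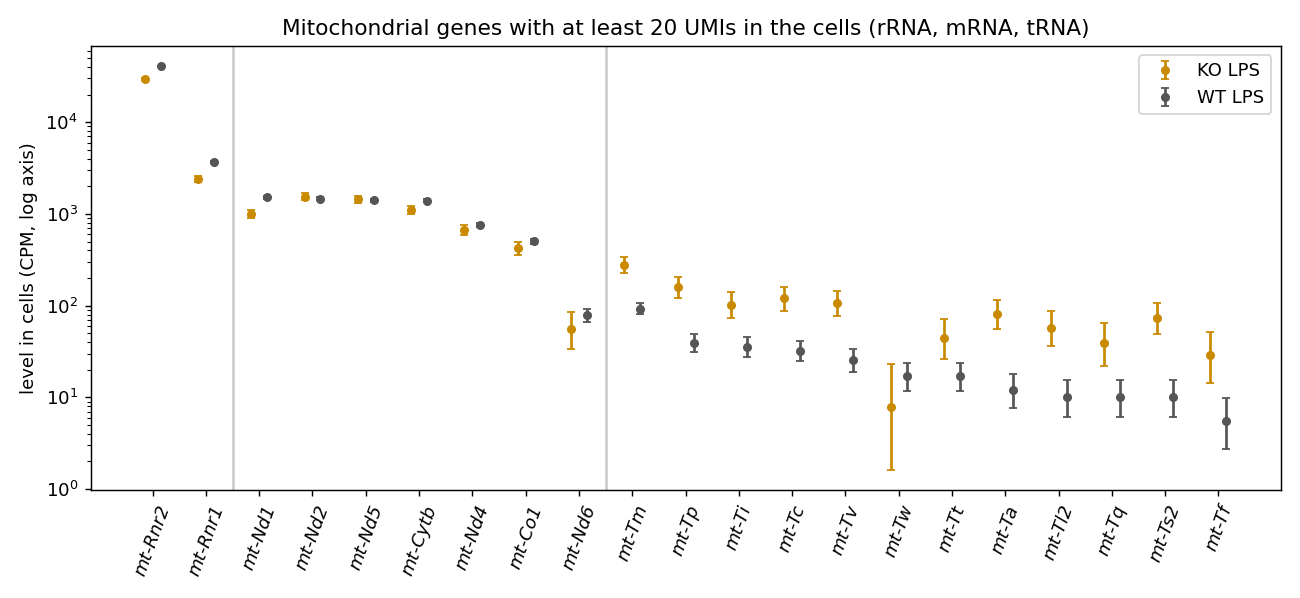
Level in cells (CPM, log axis) with exact 95% Poisson intervals for the 21 mitochondrial genes with at least 20 UMIs, ordered by the WT LPS level within rRNAs, mRNAs and tRNAs, 1 library per genotype. The tRNAs other than mt-Tw sit higher in KO LPS, whereas rRNAs and mRNAs sit at or below WT LPS except mt-Nd2 and mt-Nd5. Per UMI of cytosolic ribosomal protein genes, a scale that raises every ratio alike, 20 of the 21 genes were higher in KO LPS.

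The tRNAs were few in UMIs but differed in 1 direction. mt-Tm, which decodes methionine, had 106 UMIs in KO LPS cells and 185 in WT LPS cells, that is 278 CPM (228 to 336) and 93.0 CPM (80.1 to 107), a ratio of 2.99 (2.33 to 3.82). mt-Tp had 160 and 39.2 CPM (ratio 4.08, 2.87 to 5.78), mt-Tc, for cysteine, 121 and 32.2 CPM (ratio 3.75, 2.51 to 5.56), and mt-Tv 108 and 25.6 CPM (ratio 4.19, 2.71 to 6.45). The 11 tRNAs that were higher had ratios from 2.61 (mt-Tt) to 7.30 (mt-Ts2), and over all cells every interval lay above 1. Without cells of a mitochondrial share over 10%, 6 of 12 intervals lay above 1 (mt-Ta, mt-Tc, mt-Ti, mt-Tm, mt-Ts2 and mt-Tv), and in Xist cells 5 of 10 did, with mt-Tp at 1.05 (0.366 to 2.71) and mt-Tv at 1.20 (0.371 to 3.46). The higher level of the summed tRNA thus held in these choices of cells, while that of several single tRNAs did not hold beyond counting error. The 11 tRNAs came from both strands of the chromosome: mt-Tp, mt-Tc, mt-Ta and mt-Tq, with ratios from 3.75 to 6.74, are encoded on the strand opposite to the rRNAs. mt-Tw, with 3 and 34 UMIs, had a ratio of 0.460 with an interval from 0.0904 to 1.46. It is also the one among the 12 tested tRNAs that is copied in the nucleus over 100% of its windows. mt-Tl1 had 9 and 5 UMIs, under the limit for this count (ratio 9.39, 2.83 to 35.7). A UMI on a tRNA gene can come from a precursor or from a neighbouring transcript that runs into it, and these cannot be told apart from mature tRNA.

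A handful of cells held much of the tRNA. In KO LPS, the cell with the largest mitochondrial share (64.1% of 660 UMIs) held 63 of the 435 tRNA UMIs (14.5%), and the next (35.9% of 1892 UMIs) held 121 (27.8%). In WT LPS, 1 cell with a mitochondrial share of 43.1% of 3144 UMIs held 93 of the 629 tRNA UMIs (14.8%). These cells carried little of the microglia markers (0, 11 and 5 UMIs) and more of the astrocyte markers (3, 28 and 50 UMIs). Leaving out the 3 cells per library with the highest mitochondrial share, an alternative added after seeing the data, gave a tRNA ratio of 2.40 (2.06 to 2.80), with 11 of 12 tRNAs still higher and 10 of them by over 1.5-fold. The exceptions were mt-Tw and mt-Tq, whose ratio became 1.40 (0.339 to 4.41). The intervals of 8 of the 12 lay above 1, and those of mt-Tf (1.5, 0.152 to 7.90) and mt-Tt (1.70, 0.743 to 3.55) also held 1, while mt-Tp fell from 4.08 to 1.82 (1.02 to 3.11). In the same cells the mRNA ratio became 0.774 (0.738 to 0.810), with mt-Nd2 at 0.924 (0.838 to 1.02) and mt-Nd5 at 0.957 (0.868 to 1.05), so that both turned below 1 within counting error, as they also did with at least 200 UMIs (0.984 and 0.985) and in Xist cells (0.978 and 0.949). mt-Nd4 became 0.773 (0.668 to 0.892), below 1 beyond counting error. The rRNA ratio became 0.674 (0.661 to 0.688).

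In all, 7 of 320 KO LPS cells (2.19%, 0.884 to 4.45) and 104 of 1427 WT LPS cells (7.29%, 5.99 to 8.76) had a mitochondrial share over 10%. These cells differed from the rest in markers too. In KO LPS, microglia markers were 0.652% of their UMIs against 3.47% in the other cells, and astrocyte markers 0.336% against 0.0291%. A single KO LPS cell among them, of 2723 UMIs with a mitochondrial share of 12.7%, held 737 of the 814 choroid plexus UMIs. In WT LPS, microglia markers were 1.67% against 2.84% and astrocyte markers 0.0754% against 0.0142%, while 28 of the 29 choroid plexus UMIs lay in the other cells. The astrocyte values of the high-share cells rested on few cells: 1 WT LPS cell held 50 of the 75 astrocyte UMIs. In KO LPS 1 cell held 28 of the 33. tRNA was 2.18% of UMIs in the high-share KO LPS cells and 0.151% in those of WT LPS. Single cells named above held 63 and 121 of these 214 tRNA UMIs in KO LPS, and 93 of the 150 in WT LPS. Without them, tRNA was 0.0595% of UMIs for KO LPS against 0.0254% for WT LPS (ratio 2.35, 1.99 to 2.76), mRNA 0.523% and 0.674% (ratio 0.775), and rRNA 2.80% and 3.94% (ratio 0.711). The part of other cell types in the remaining differences was not tested.

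From cell to cell, the rRNA share ranged from 0.456% to 49.1% in KO LPS (median 2.51%) and from 0.279% to 49.0% in WT LPS (median 3.92%). The quartiles were 1.72% and 3.59% in KO LPS and 2.64% and 5.66% in WT LPS, so the distributions overlapped widely. mRNA had medians of 0.499% and 0.634%, and 16 KO LPS cells and 38 WT LPS cells had 0 mitochondrial mRNA UMIs. tRNA was at 0 UMIs in 188 of 320 KO LPS cells and 1045 of 1427 WT LPS cells. When every cell was thinned to 500 UMIs, the median rRNA share was 2.40% and 3.80% and the median mRNA share 0.400% and 0.600%, which left the order of the libraries as it was. A share over 5% was found in 50 of 320 KO LPS cells (15.6%) and 626 of 1427 WT LPS cells (43.9%), and after thinning in 53 and 597. Across cells of the same library the mRNA and rRNA shares had a Spearman correlation of 0.42 (320 cells) and 0.34 (1427 cells), where both shares have the cell's total UMIs as denominator.

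**Figure D4:**
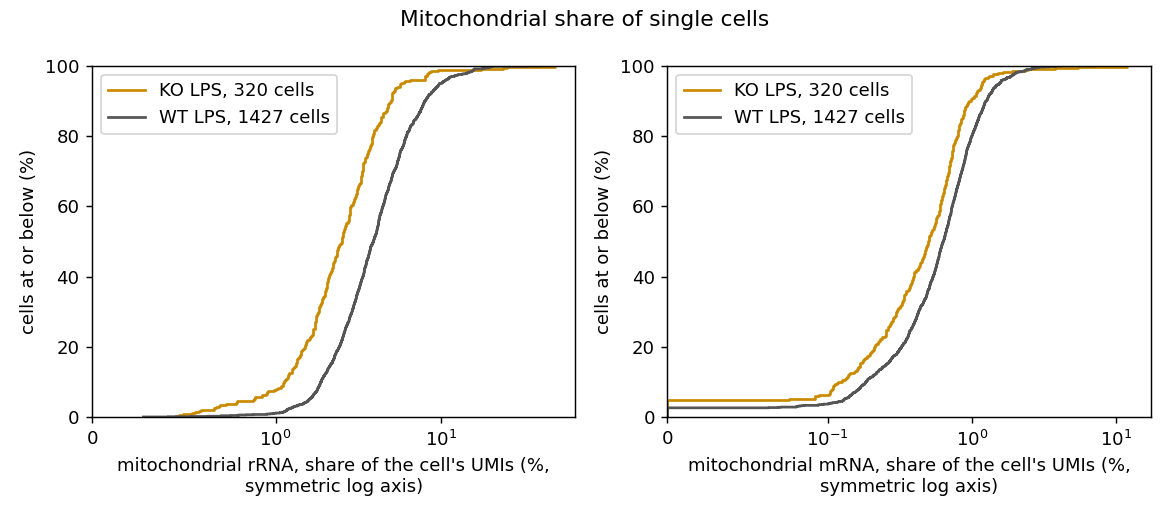
Cumulative distribution of the share of UMIs from mitochondrial rRNA (left) and mRNA (right) over the 320 KO LPS and 1427 WT LPS cells (percent, symmetric log axis). The KO LPS curves lie to the left, with medians of 2.51% against 3.92% for rRNA and 0.499% against 0.634% for mRNA, and 1 cell of each library reaches an rRNA share near 49%; shares are of all UMIs, and the order turned per UMI of cytosolic ribosomal protein genes over summed cells.

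Cells and barcodes of 1 to 100 UMIs differed in opposite ways for mRNA and rRNA. rRNA was 8.0% of UMIs in those barcodes of KO LPS and 14.9% in those of WT LPS, 2.51-fold (2.45 to 2.57) and 3.38-fold (3.34 to 3.42) the share in cells. mRNA was 0.501% and 0.587% there, so that cells had 1.25-fold (1.16 to 1.34) and 1.22-fold (1.16 to 1.28) more. The tRNA share in cells was at 0.990 (0.842 to 1.17) and 0.969 (0.786 to 1.21) of the share in those barcodes, within counting error, but this rested on few cells. Without cells of a mitochondrial share over 10% it was at 0.516 (0.427 to 0.624) for KO LPS and 0.777 (0.627 to 0.971) for WT LPS, and without the 3 cells of highest share, both added after seeing the data, at 0.560 (0.465 to 0.674) and 0.822 (0.665 to 1.03). These choices trimmed cells by their mitochondrial share and left the barcodes of 1 to 100 UMIs whole. A fall of the mitochondrial ratios is therefore partly built into them. The tRNA share of the barcodes of 1 to 100 UMIs was 0.115% for KO LPS against 0.0326% for WT LPS, a ratio of 3.53 (2.79 to 4.50), so the difference between libraries was also present in barcodes far below the cell threshold. For KO LPS mRNA the excess in cells was within counting error without the cells over 10% (1.04, 0.966 to 1.13) and against barcodes of 51 to 100 UMIs, an alternative added after seeing the data (1.09, 0.95 to 1.26).

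mt-Rnr2 ranked 1 among all genes in the barcodes of 1 to 100 UMIs of both libraries, ahead of Malat1. The 12S rRNA was tilted further towards them than the 16S rRNA. mt-Rnr1 in cells was 0.196 of its level in barcodes of 1 to 100 UMIs for KO LPS (0.181 to 0.211) and 0.167 for WT LPS (0.162 to 0.173), while mt-Rnr2 was 0.435 (0.425 to 0.446) and 0.318 (0.314 to 0.321). mt-Rnr1 accordingly made up 15.3% of the rRNA UMIs in those barcodes of KO LPS and 14.6% in those of WT LPS, against 7.54% and 8.24% in cells. Malat1, which stays in the nucleus, was also higher in those barcodes, at 6.08% and 7.82% against 4.50% and 4.12% in cells.

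Of 20 mitochondrial genes with at least 20 UMIs, 5 were higher in KO LPS cells by over 1.5-fold (20.9% of all genes were) and 5 lower (8.48% of all genes), and in WT LPS 7 of 20 were higher (35.1% of all genes) and 7 lower (11% of all genes). mt-Cytb, mt-Nd4 and mt-Tm were higher in the cells of both libraries. mt-Cytb in cells was 1.72-fold (1.41 to 2.11) and 1.92-fold (1.67 to 2.20) its level in the barcodes of 1 to 100 UMIs, mt-Nd4 1.72-fold and 2.25-fold, and mt-Tm 2.05-fold (1.33 to 3.25) and 4.2-fold (2.00 to 10.6). mt-Rnr1, mt-Rnr2, mt-Tl2 and mt-Tv were lower in the cells of both. For mt-Tl2 in WT LPS, with 7 UMIs in the barcodes of 1 to 100 UMIs, the interval held 1 (0.454, 0.184 to 1.27). The mRNAs again did not move together: mt-Nd5 in cells was at 0.896 (0.780 to 1.03) and 0.717 (0.657 to 0.784) of its level in those barcodes, and it made up 32.2% and 33.4% of their mitochondrial mRNA UMIs against 23.2% and 19.7% in cells. mt-Ta, for alanine, was at 3.23 (1.25 to 10.6) for KO LPS and 0.762 (0.285 to 2.56) for WT LPS, each from 5 UMIs in the barcodes of 1 to 100 UMIs.

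The rRNA share differed with the depth of the barcode. In WT LPS it was 15% at 51 to 100 UMIs, 15.4% at 101 to 200, 10.7% at 201 to 499, 5.01% at 500 to 999, 4.44% at 1000 to 1999 and 4.03% from 2000 UMIs. In KO LPS the same bins held 8.19%, 5.92%, 3.26%, 3.10%, 2.82% and 3.92%. From 101 UMIs on the WT LPS share was thus lower in each deeper bin, whereas the KO LPS share was lowest at 1000 to 1999 UMIs and higher again from 2000. The libraries differed most below 500 UMIs. In cells of at least 2000 UMIs the shares were 3.92% (3.80 to 4.05, 34 cells) and 4.03% (3.99 to 4.07, 236 cells), with intervals that overlap, and 1 KO LPS cell decided this overlap. Without the 3 cells of highest mitochondrial share they were 3.45% (3.33 to 3.57, 33 cells) and 3.91% (3.87 to 3.95, 235 cells), and without cells over 10% they were 3.26% (3.15 to 3.38) and 3.83% (3.79 to 3.88), so that for KO LPS both lay above the 2.65% and 2.60% of the same choices at 1000 to 1999 UMIs. Microglia markers in WT LPS were 1.43% at 101 to 200 UMIs and 2.90% from 2000 UMIs, whereas in KO LPS they were between 2.78% and 3.44% in all bins from 11 UMIs. In barcodes of few UMIs the summed share of the 10 markers was thus lower in WT LPS than in KO LPS. The markers themselves differed between the libraries' cells, with KO LPS to WT LPS ratios from 0.536 (C1qa) to 9.46 (P2ry12). A lower summed share therefore does not measure the amount of microglia RNA alone. Its part in the difference of rRNA between libraries was not tested. The mRNA share was 0.512% (KO LPS) and 0.718% (WT LPS) at 500 to 999 UMIs, 0.681% and 0.686% at 1000 to 1999, and 0.681% and 0.738% from 2000 UMIs. Without the 3 cells the latter bins held 0.546% and 0.683%, and 0.613% and 0.711%.

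**Figure D5:**
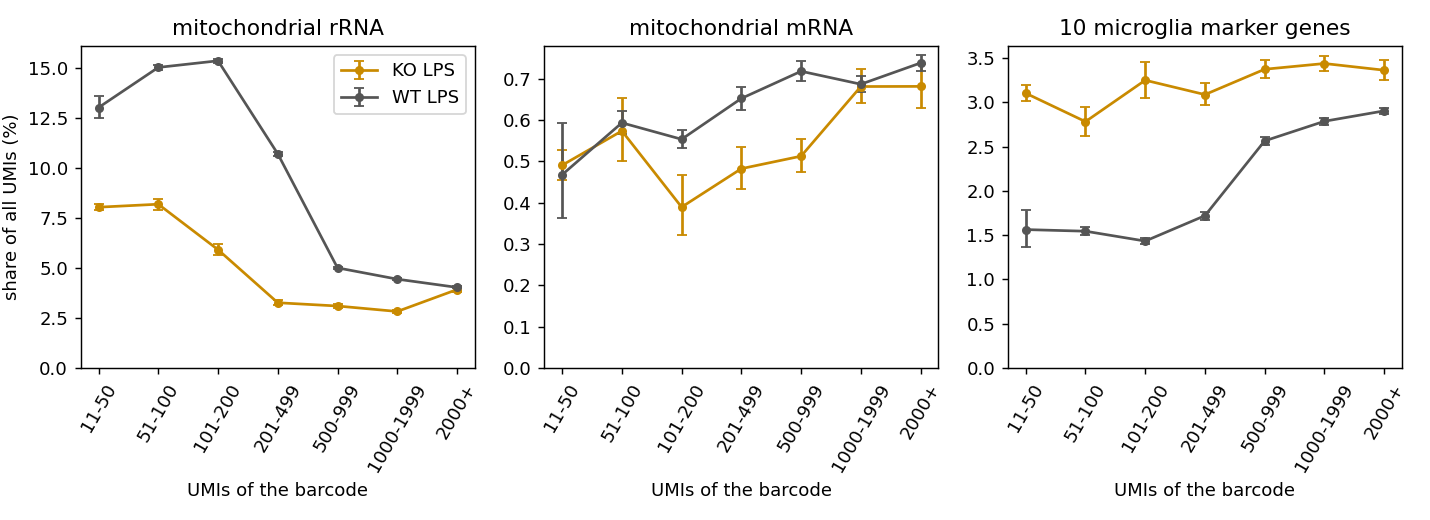
Percent of UMIs from mitochondrial rRNA, mitochondrial mRNA and 10 microglia marker genes in barcodes binned by their number of UMIs, with exact 95% counting intervals, 1 library per genotype. In WT LPS the rRNA share fell from 15.4% at 101 to 200 UMIs to 4.03% from 2000 UMIs, and in the deepest bin the libraries stood at 3.92% and 4.03%, or 3.45% and 3.91% without the 3 cells of highest mitochondrial share; on the scale of cytosolic ribosomal protein genes the order of the libraries over all cells turned.

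Each library pooled a female and a male mouse, so cells were also split by Xist (at least 2 UMIs and no Y-linked UMI) and by Y-linked genes (at least 1 UMI and no Xist UMI). Xist marked 148 KO LPS and 323 WT LPS cells, and Y-linked genes 12 and 195. Y-linked genes summed to 78.7 CPM in KO LPS cells and 197 CPM in WT LPS cells (ratio 0.399, 0.266 to 0.579), so the libraries were not alike in this respect. In the Xist cells mRNA was 0.557% of UMIs for KO LPS against 0.726% for WT LPS (ratio 0.766, 0.716 to 0.819), rRNA 3.24% and 4.36% (0.743, 0.723 to 0.764) and tRNA 0.0628% and 0.0279% (2.25, 1.76 to 2.88). In the Y-linked cells the ratios were 0.668 (0.516 to 0.852), 0.628 (0.566 to 0.695) and 2.53 (1.17 to 4.89). The direction was the same in both classes, and the 12 KO LPS cells of the second class leave wide intervals. Within WT LPS, the 583 cells with a UMI of Saa3, an acute phase gene induced by LPS, had 0.689% mRNA (0.672 to 0.705) and 4.26% rRNA (4.22 to 4.30), and the 844 cells without had 0.738% (0.721 to 0.755) and 4.57% (4.53 to 4.61). The median depth of these classes was 1267 and 969.5 UMIs.

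The KO LPS to WT LPS ratio was lower for the nuclear partners of these genes than for the mitochondrial mRNAs. Over 76 measured nuclear subunits of the respiratory complexes, the UMIs summed to 6069 CPM among KO LPS cells and 10687 CPM among WT LPS cells, a ratio of 0.568 (0.544 to 0.593), with 1 of 75 genes higher by over 1.5-fold (Ndufa9, 1.68) and 53 lower, and a median log2 ratio of -0.83. Ndufa3 had the lowest ratio of those with at least 50 UMIs (0.317, 0.205 to 0.471). Per UMI of cytosolic ribosomal protein genes the direction turned for these subunits too, to 1.11 (1.07 to 1.16), against 1.72 for mitochondrial mRNA on that scale. By complex the ratio was 0.593 for complex I, 0.693 for complex II, which has no mitochondrial subunit, 0.580 for complex III, 0.522 for complex IV and 0.553 for complex V. For the 3 complexes where mitochondrial mRNAs were counted, complex III stood at 0.793 (mt-Cytb) against 0.580 for its nuclear subunits and complex IV at 0.836 (mt-Co1) against 0.522, while for complex I mt-Nd1 at 0.654 (0.586 to 0.728) overlapped with the nuclear subunits at 0.593 (0.552 to 0.637) and mt-Nd2 and mt-Nd5 stood above them, at 1.06 and 1.03. Without the 3 cells of highest mitochondrial share the intervals overlapped for complex IV, with mt-Co1 at 0.638 (0.522 to 0.773) and the nuclear subunits at 0.499 (0.454 to 0.548), and for complex III, with mt-Cytb at 0.708 (0.633 to 0.790) and the nuclear subunits at 0.577 (0.504 to 0.658), while the sums stood at 0.774 for mitochondrial mRNA and 0.559 for all nuclear subunits. Without cells of a mitochondrial share over 10% they stayed apart, with mt-Co1 at 0.650 (0.530 to 0.791) against 0.457 (0.414 to 0.504) and mt-Cytb at 0.710 (0.633 to 0.795) against 0.530 (0.460 to 0.607). In cells relative to barcodes of 1 to 100 UMIs, the nuclear subunits were at 1.57 (1.45 to 1.71) for KO LPS and 2.61 (2.47 to 2.77) for WT LPS, above the 1.25 and 1.22 of the mitochondrial mRNAs.

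Genes that keep and express the mitochondrial chromosome were measured at low levels. The 76 nuclear genes of the mitochondrial ribosome were at 0.601 (0.561 to 0.643), with 0 of 74 higher and 38 lower by over 1.5-fold, and turned to 1.18 (1.10 to 1.26) per UMI of cytosolic ribosomal protein genes. Genes of mitochondrial DNA maintenance and transcription stood at 569 and 518 CPM, a ratio of 1.10 (0.944 to 1.27), with 4 of 15 higher and 2 lower, and at 2.15 (1.85 to 2.49) on the other scale. Of those with at least 50 UMIs over both libraries, Ccdc111, a primase and polymerase, had the highest ratio (1.97, 1.11 to 3.35) and Polg, the catalytic subunit of the mitochondrial DNA polymerase, the lowest (0.803, 0.398 to 1.48). Tfam, which packages mitochondrial DNA and starts its transcription, was at 57.7 and 46.8 CPM (ratio 1.23, 0.738 to 1.98), and Polrmt, the mitochondrial RNA polymerase, had 2 and 18 UMIs (ratio 0.580, 0.0652 to 2.42). Genes of mitochondrial RNA processing and stability were at 0.733 (0.639 to 0.838), with 3 of 24 higher and 8 lower, and turned to 1.44 (1.25 to 1.64) on the other scale. Nsun4, which methylates mitochondrial rRNA, had the highest ratio among those with at least 50 UMIs, with 16 and 42 (1.99, 1.04 to 3.61). At the other end Hsd17b10, a subunit of mitochondrial RNase P, which cuts the 5' ends of the tRNAs, had 4 and 75 UMIs (ratio 0.278, 0.0739 to 0.742), and Lrpprc, which stabilises mitochondrial mRNAs, had a ratio of 1.14 (0.711 to 1.78). Genes of mitochondrial translation stood at 1.04 (0.887 to 1.21), with 1 of 12 higher and 3 lower and a median log2 ratio of -0.44. Gfm2, which acts in recycling of the mitochondrial ribosome, held 91 of their 198 UMIs in KO LPS cells (ratio 1.80), and without it the sum was at 0.762 (0.617 to 0.935), or 1.49 (1.21 to 1.83) on the other scale. These nuclear lists are counts over single libraries, read beside 26.2% of all genes higher and 25.8% lower.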

How the data were processed

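Per the labels, methods and files, sorted brain cells of 2 groups were profiled by Drop-seq, with 1 library each. The authors deposited raw counts (UMIs per gene and barcode, 9999 barcodes per library) without normalisation or cell calling. Genes listed for 1 library only were missing in the other and were read as 0. The submitters' processing notes name bcl2fastq 2.0, STAR, mm9 and mm10 without roles, and the counting program, the annotation and the treatment of multiply mapped reads are not given in the sources used here. The threshold for cells (500 UMIs and 100 genes) is not the study's own cell calling, so the number of cells differs from the study's. Members, lists and cell thresholds were chosen with earlier results of these data known. UMIs were summed over cells. Exact 95% intervals were Poisson for levels, Clopper-Pearson for shares and conditional binomial for ratios. Log2 ratios of single genes over all cells, used for medians and 1.5-fold counts, had a prior count of 0.5. Log2 ratios of summed classes and under the alternatives had none. A gene counted as past 1.5-fold among genes with at least 20 UMIs. Every gene starting with mt- could be named, and of each nuclear list the highest and lowest ratio with at least 50 UMIs, plus Tfam, Polrmt and Lrpprc. Nuclear copies were found with blastn 2.17.0 (word size 28) of the mitochondrial chromosome (16299 bases) against the nuclear GRCm39 genome. The 37 mitochondrial genes have the same start and end in GRCm38. Doublets were not called; leaving out the 1% of cells with most UMIs stood in for it. Cells were not clustered. Calculations used Python 3.11.15, numpy 2.4.6, scipy 1.17.1 and pandas 2.3.3 and were tested on simulated data. Alternatives changed the UMI thresholds, the scaling, the cells kept and the comparison barcodes.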

Additional observations from a re-analysis of the deposited data

Results flagged for a closer look

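Barcodes with 101 to 499 UMIs (443 for KO LPS and 4302 for WT LPS) enter neither the cells nor the barcodes of 1 to 100 UMIs, and the report describes them only by depth, for rRNA, mRNA and microglia markers. In them mitochondrial tRNA was 0.0783% of UMIs for KO LPS against 0.0390% for WT LPS, giving a ratio of 2.01 (1.55 to 2.57), so the pooled KO LPS value lay above that of the control library. The 2 depth bins differed: at 101 to 200 UMIs the ratio was 3.46 (2.28 to 5.11), and at 201 to 499 UMIs it was 1.34 (0.954 to 1.85), within counting error of 1. The difference rests on 1 library per genotype and was not tested.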

How the results depend on the processing

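No paired analysis was possible because each genotype is 1 library and no replicate can be left out. Values here are log2 ratios. For KO LPS over WT LPS, the tRNA share kept its direction under all 11 alternatives: it was 1.85 as reported, 1.64 with at least 200 UMIs, 1.23 without cells over 10%, 1.17 in Xist cells, 1.34 in Y-linked cells, 1.27 without the 3 cells of highest share and 2.82 per UMI of cytosolic ribosomal protein genes. The mRNA share (-0.19) and the rRNA share (-0.47) turned only on that last scale, to 0.78 and 0.50, where 7 of the 21 genes turned: mt-Nd1 (0.36), mt-Rnr1 (0.37), mt-Rnr2, mt-Co1, mt-Cytb, mt-Nd4 and mt-Nd6. mt-Nd2 and mt-Nd5 turned with at least 200 UMIs, without cells over 10%, without the 3 cells and in Xist cells, and mt-Nd2 and mt-Co1 in Y-linked cells. Otherwise mRNA was -0.065 with at least 1000 UMIs, -0.37 without cells over 10%, -0.38 in Xist cells, -0.58 in Y-linked cells, -0.37 without the 3 cells and -0.27 as the mean of single-cell shares. rRNA was -0.39 with at least 1000 UMIs, -0.73 with at least 200, -0.51 without the 1% of cells with most UMIs, -0.43 in Xist cells, -0.67 in Y-linked cells, -0.57 without the 3 cells, -0.50 with the median of all genes at 0 and -0.59 as the mean of single-cell shares.

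Cells over barcodes of 1 to 100 UMIs kept their direction for mRNA and rRNA, with KO LPS mRNA within counting error without cells over 10% and against barcodes of 51 to 100 UMIs. The choices by mitochondrial share trimmed the cells only. mRNA in KO LPS (0.32) was 0.44 with at least 1000 UMIs, 0.061 without cells over 10%, 0.11 without the 3 cells and 0.12 against barcodes of 51 to 100 UMIs, and in WT LPS (0.28) it was 0.61 against barcodes of 1 to 50 UMIs, 0.11 per UMI of nuclear genes and 0.20 without cells over 10%. rRNA in KO LPS (-1.33) was -1.36 against barcodes of 51 to 100 UMIs, -1.40 per UMI of nuclear genes, -1.51 without cells over 10% and -1.46 without the 3 cells, and in WT LPS (-1.76) it was -1.82 with at least 1000 UMIs, -1.50 with at least 200, -1.56 against barcodes of 1 to 50 UMIs, -1.93 per UMI of nuclear genes, -1.92 without cells over 10% and -1.79 without the 3 cells. tRNA in KO LPS (-0.015) was -0.95 without cells over 10% and -0.84 without the 3 cells, and in WT LPS (-0.045) it was -0.40 against barcodes of 1 to 50 UMIs and -0.36 without cells over 10%; its sign turned within counting error with at least 1000 UMIs (0.020 for KO LPS and 0.031 for WT LPS), with at least 200 in WT LPS (0.066) and against barcodes of 51 to 100 UMIs in KO LPS (0.019). The count of mitochondrial genes past 1.5-fold was 14 of 21 as reported. It was 6 of 13 with at least 100 UMIs, where fewer genes are counted, and 19 of 27 with at least 1. The share over all genes was taken only at the UMI limit of the reported count, so the other counts have no such reference. Where no cause is stated, the cause was not tested. With 1 library per genotype, pooled mice, unequal depth, unequal Y-linked UMIs and unequal markers of other cell types, genotype and library cannot be told apart.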
